A study of Homo sapiens with 12 samples.

Results

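STC1 and STC2 encode the stanniocalcins, a pair of secreted glycoprotein hormones. They were read on 12 arrays of NCI-H1299 cells, an established human lung cancer line, grown in culture or as tumours. The members are these 2 of 19775 genes represented on the arrays, with all 5 of their probe sets (3 for STC1 and 2 for STC2) out of 54675 probe sets. The pair was selected on its log2 levels in the tumours, which differ in opposite directions between the 2 kinds. Their difference between the kinds of tumour is therefore given as a description with no test, and no test is given for how the change from culture to tumour differs between the cell origins.

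There were 4 groups of 3 arrays, 1 array per sample. The first group was parental cells cultured in serum-containing medium, and the second was spheroid cells cultured in stem-cell medium, where they had been kept for 7 to 10 days before the floating cells were moved to flasks that hinder attachment. The other groups were xenograft tumours grown from the parental and from the spheroid cells. All groups share 1 cell line and no gene was altered. Spheroid growth and stem-cell medium go together, so their effects cannot be told apart. The sources used here do not give the host animal, the age of the tumours or whether each tumour grew in its own animal. The titles call the samples biological replicates. Where they were not separate cultures or animals, the p-values measure only the spread between these samples, which may be technical.

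Stanniocalcin was first known as a hormone of bony fish that lowers calcium uptake. In mammals both proteins act mostly near the cells that secrete them, and both can inhibit the protease PAPP-A, which frees insulin-like growth factors from their binding proteins. STC1 is known as a gene that hypoxia-inducible factor (HIF) can induce. STC2 is known as a target of ATF4, the transcription factor of the integrated stress response, which acts when protein folding in the endoplasmic reticulum or amino acid supply is disturbed.

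The 250 bases before the STC2 start, in GRCh38.p14 coordinates chr5:173328415-173328664 on the minus strand, are shown because the results set this gene beside HIF and ATF4 targets. CHAC1, a glutathione-degrading enzyme, is an ATF4 target whose profile over the arrays, centred on its own mean, lay close to that of STC2. For that reason the 250 bases before its start, at chr15:40953221-40953470 on the plus strand, are shown beside those of STC2. Both are RefSeq sequences, 5′ to 3′ along the gene. Capitals mark matches on either strand to ACGTG or GCGTG, the core that HIF binds, and to TGATGNAA, part of the element that ATF4 binds with its partners.
STC2: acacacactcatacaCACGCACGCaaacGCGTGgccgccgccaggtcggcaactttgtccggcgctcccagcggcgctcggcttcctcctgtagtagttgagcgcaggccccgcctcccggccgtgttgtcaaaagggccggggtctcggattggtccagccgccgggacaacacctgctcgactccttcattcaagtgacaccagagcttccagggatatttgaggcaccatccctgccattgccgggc
CHAC1: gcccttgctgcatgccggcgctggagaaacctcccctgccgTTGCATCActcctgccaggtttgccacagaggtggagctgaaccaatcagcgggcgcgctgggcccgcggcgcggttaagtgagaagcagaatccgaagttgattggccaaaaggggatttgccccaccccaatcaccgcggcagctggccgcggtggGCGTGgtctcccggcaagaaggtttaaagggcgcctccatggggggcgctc

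The STC2 stretch held GCGTG at 3 places, on the strand opposite to the gene from 235 and from 231 bases before the start, where the matches overlap by 1 base, and on the strand of the gene from 222. It held no match to ACGTG or TGATGNAA, which says only that these letters are not in this window. The CHAC1 stretch held TGATGNAA on the opposite strand from 209 bases before the start, and GCGTG on the strand of the gene from 51. PCK2, an ATF4 target with a profile closer still to that of STC2, held none of these motifs in its stretch. JDP2, the next after CHAC1, held only GCGTG. Of 27303 promoter stretches of this length, 31.9% held GCGTG, 18.7% ACGTG and 3.19% TGATGNAA on either strand. TGATGNAA was in 5 of the 24 ATF4 targets with a sequence, and ACGTG in 14 of the 24 HIF targets with one. GCGTG, the motif in the STC2 stretch, was in 13 of the 24 ATF4 targets and in 12 of the 24 HIF targets. A match is a description of letters and not of binding.

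Levels are log2 values, in which 1 unit is a doubling of signal, and differences of groups are in the same units. The array medians ran from 5.85 to 6.03 and the lower quartiles from 4.63 to 4.8. Parental culture replicates 1 and 2 stood apart from the other 10 arrays. Their 18S ribosomal RNA signal (5′ probe set) was 6.96 and 10.50, while the rest lay between 12.21 and 13.34. GAPDH read higher by 0.49 at its 3′ than at its 5′ end on replicate 1, and by 0.019 to 0.13 elsewhere, a measure of RNA integrity. The interquartile range was smallest on replicate 1 (2.82) and largest on replicate 2 (3.44). Both arrays enter each comparison with parental culture below.

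The keratins KRT8 and KRT18, which mark epithelial cells, read 8.96 and 12.56 on average in parental culture, and the mesenchymal filament VIM read 14.16 to 14.68 as a group mean. EPCAM and CDH1, which most epithelial cells express, lay below the lower quartile on all arrays. In parental xenografts against parental culture KRT8 fell by 1.77, a call kept in each of 12 fits without 1 array, and KRT18 fell by 1.71, a call kept in 9 of them (limma adjusted p up to 0.0856). In spheroid against parental culture KRT8 fell by 1.43, a call lost without spheroid culture replicate 2 (adjusted p = 0.0718).

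STC1 was highest in tumours from parental cells and lowest in tumours from spheroid cells. On probe set 204595_s_at, the brightest of its 3 and the one that represents the gene, parental culture read 8.82, 9.90 and 9.12 (replicates 1 to 3). Spheroid culture read 10.45, 9.50 and 9.44. Parental xenografts read 10.02, 12.16 and 10.76, and spheroid xenografts 7.51, 7.24 and 7.90. The 3 spheroid xenografts lay below the other 9 arrays, and parental xenograft replicate 2 lay above them all.

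The order of the group means was parental xenografts (10.98 ± 1.09, SD, n = 3 in each group), spheroid culture (9.80 ± 0.56), parental culture (9.28 ± 0.56) and spheroid xenografts (7.55 ± 0.33). Neighbours in the first 2 steps overlapped and are not separated by their spread. The last step, 1.73 from parental culture to spheroid xenografts, was between groups that did not overlap. The other 2 STC1 probe sets gave the same order and the same overlaps, with a last step of 1.69 and 2.30. Their means ran from 9.72 ± 1.22 to 6.09 ± 0.62 on 204596_s_at and from 9.73 ± 1.11 to 6.11 ± 0.38 on 204597_x_at. All 3 names end in _s_at or _x_at, suffixes that Affymetrix gives to probe sets which may match more than 1 transcript.

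**Figure D1:**
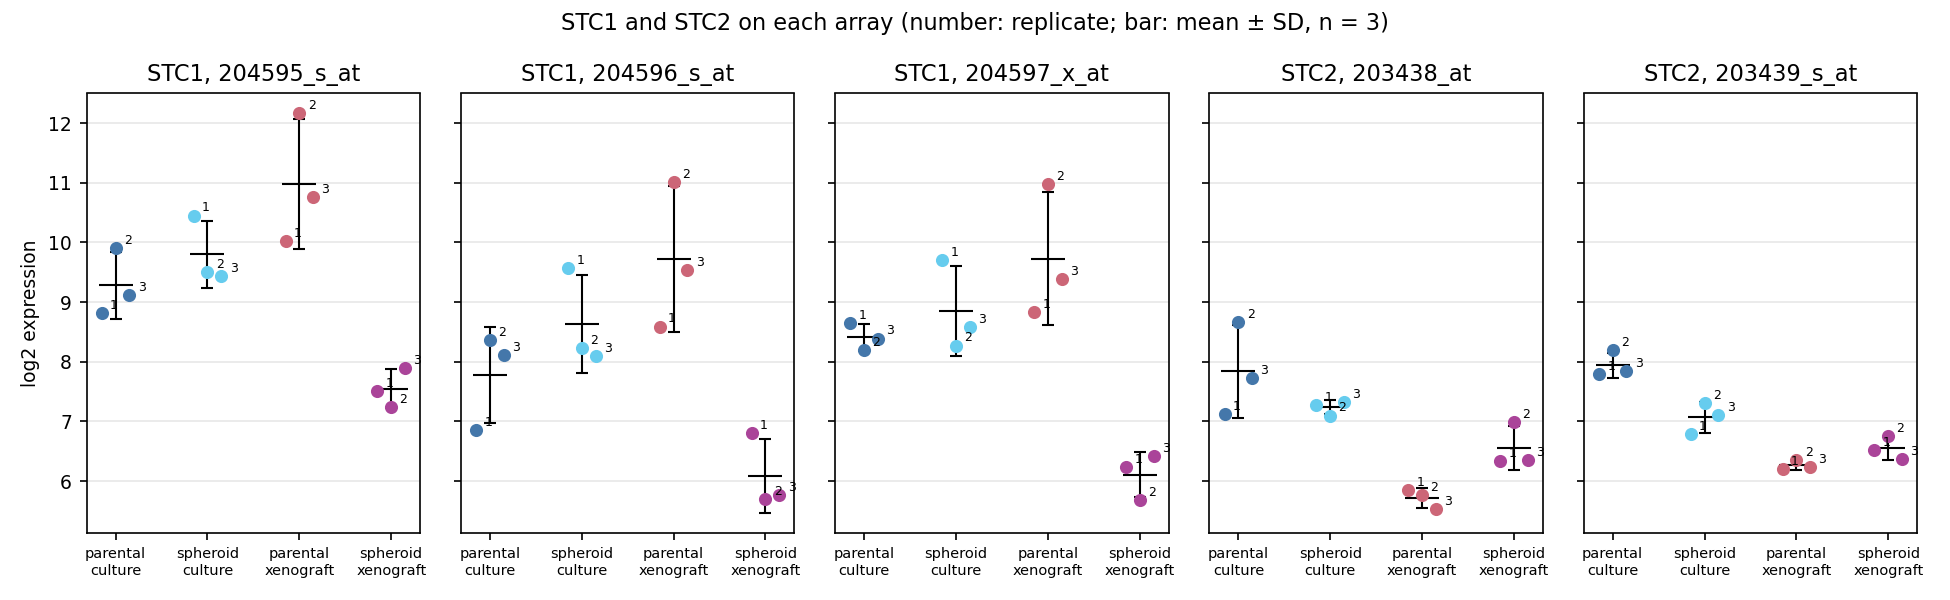
Log2 level of the 5 probe sets of STC1 and STC2 (vertical axis) in the 4 groups (horizontal axis); points are arrays with their replicate number, and bars are the mean ± SD of 3 arrays. On all 3 STC1 probe sets the spheroid xenografts are the lowest group, and on both STC2 probe sets the parental xenografts are.

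STC2 was highest in parental culture and lowest in parental xenografts. On 203439_s_at, which represents the gene, parental culture read 7.80, 8.19 and 7.85. Spheroid culture read 6.79, 7.31 and 7.11. Parental xenografts read 6.20, 6.36 and 6.24, and spheroid xenografts 6.52, 6.75 and 6.37. No 2 groups overlapped, though the highest parental and the lowest spheroid xenograft were almost level.

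The group means on 203439_s_at were 7.94 ± 0.21, 7.07 ± 0.26, 6.55 ± 0.19 and 6.27 ± 0.082 (SD, n = 3) in the order parental culture, spheroid culture, spheroid xenografts, parental xenografts. The second probe set, 203438_at, gave the same order, with 7.84 ± 0.78, 7.24 ± 0.12, 6.56 ± 0.37 and 5.72 ± 0.17. There parental culture read 7.12, 8.66 and 7.73 and overlapped with spheroid culture, which read 7.28, 7.10 and 7.33. The xenografts were further apart on it, at 5.85, 5.76 and 5.53 against 6.33, 6.99 and 6.35. In bulk samples such as these, fewer cells that express a gene and less of its RNA per cell cannot be told apart.

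The first comparison is of spheroid with parental culture. STC2 fell, by 0.87 (SE 0.17, limma adjusted p = 0.0217 over 19775 genes), or 1.83-fold, and its arrays did not overlap between the groups. A gene is called here at an adjusted p under 0.05, and 1.58% of all genes were called lower, while 6.56% had no overlap with the spheroid arrays lower. Among all probe sets 0.822% were called lower, 203439_s_at among them. On 203438_at the difference was -0.60 (SE 0.32, adjusted p = 0.535 over all probe sets), with overlap and no call. The call on 203439_s_at was lost without parental culture replicate 3 (adjusted p = 0.0506), spheroid culture replicate 1 (0.0509), replicate 2 (0.0536) or replicate 3 (0.0721), and when the fit held the culture arrays alone (0.159). The adjusted p ran from 0.00621 to 0.479 over its alternatives.

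STC1 differed by 0.52 between spheroid and parental culture (SE 0.48, 95% interval -0.52 to 1.56, limma adjusted p = 0.729) and was not called. The groups overlapped on each of its probe sets, whose differences were 0.86 on 204596_s_at and 0.44 on 204597_x_at. The interval spans 0. Without spheroid culture replicate 1, the array with the highest STC1 in culture, the difference was 0.19.

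The second comparison sets parental xenografts against parental culture. STC2 fell by 1.68 (SE 0.17, limma adjusted p = 8.50e-04), or 3.20-fold, and by 2.12 on 203438_at (SE 0.32, adjusted p = 0.00744 over all probe sets). On both probe sets each xenograft lay below each culture. The pair was selected on tumour arrays that include these xenografts, so the p-values here are not independent of that choice. In this comparison 1.48% of genes and 0.818% of probe sets were called lower, and 6.28% of genes and 5.44% of probe sets had no overlap in that direction. The call held in all 24 alternatives, with adjusted p from 1.88e-04 to 0.0498.

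STC1 was higher in parental xenografts than in parental culture by 1.70, or 3.25-fold, but the difference did not pass (SE 0.48, 95% interval 0.66 to 2.74, limma adjusted p = 0.0790). Its arrays did not overlap on any of the 3 probe sets, as for 7.37% of genes and 7.68% of probe sets in this direction. The tumour arrays here are among those on which the pair was selected. The other probe sets gave 1.94 and 1.32, with adjusted p = 0.156 and 0.244 over all probe sets. Without parental culture replicate 2 the difference was 2.01 and passed (adjusted p = 0.0298), and without parental xenograft replicate 1 it was 2.18 and passed (0.0375). Without parental xenograft replicate 2, the array with the highest STC1, it was 1.11, and the adjusted p over all alternatives ran from 0.0298 to 0.271.

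The third comparison sets spheroid xenografts against spheroid culture. STC1 was lower in the xenografts by 2.25, or 4.76-fold (SE 0.48, 95% interval -3.29 to -1.21), and did not pass over all genes (limma adjusted p = 0.131). The fit called 0.0202% of genes higher and 0% lower here, 4 genes in all, and 15 of 19775 genes had a larger absolute difference than STC1. The differences were -2.54 and -2.74 on the other probe sets (adjusted p = 0.152 and 0.0545 over all probe sets), without overlap on any, as for 9.85% of genes and 9.10% of probe sets in this direction. Same-numbered arrays of these 2 groups deviated together, and those of STC1 differed by -2.94, -2.27 and -1.55. With only these 6 arrays in the fit STC1 was called (SE 0.28, limma adjusted p = 0.0174). With the replicate number as a block as well, a fit chosen after seeing the data, it was called too (0.00952). The adjusted p over all alternatives ran from 0.00952 to 0.451, and the tumour arrays are again among those that selected the pair.

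STC2 was lower in spheroid xenografts than in spheroid culture by 0.52 (SE 0.17, 95% interval -0.90 to -0.15) and was not called (limma adjusted p = 0.421). On 203438_at the difference was -0.68 (SE 0.32, adjusted p = 0.651 over all probe sets). The arrays of the groups did not overlap on either probe set, as for 9.85% of genes and 9.1% of probe sets in this direction. These tumour arrays too are among those that selected the pair. The adjusted p stayed above 0.05 in all 24 alternatives, from 0.0805 to 1.00.

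Between the tumours the stanniocalcins stood in opposite orders, which is what chose them. STC1 in spheroid xenografts lay below that in parental ones by 3.43 (SE 0.48), or 10.8-fold, and by 3.63 and 3.62 on the other probe sets. STC2 was higher by 0.28 (SE 0.17), or 1.21-fold, on 203439_s_at and by 0.84 (SE 0.32) on 203438_at. For STC1 8 genes had a larger absolute difference, and for STC2 4278. Without overlap, 7.21% of all genes were lower and 9.30% higher in spheroid xenografts. Leaving out 1 array moved the STC1 difference between -3.91 and -2.84 and that of STC2 between 0.18 and 0.36. The change from culture to tumour was 3.95 lower for spheroid than for parental cells in STC1 and 1.15 higher in STC2.

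**Figure D2:**
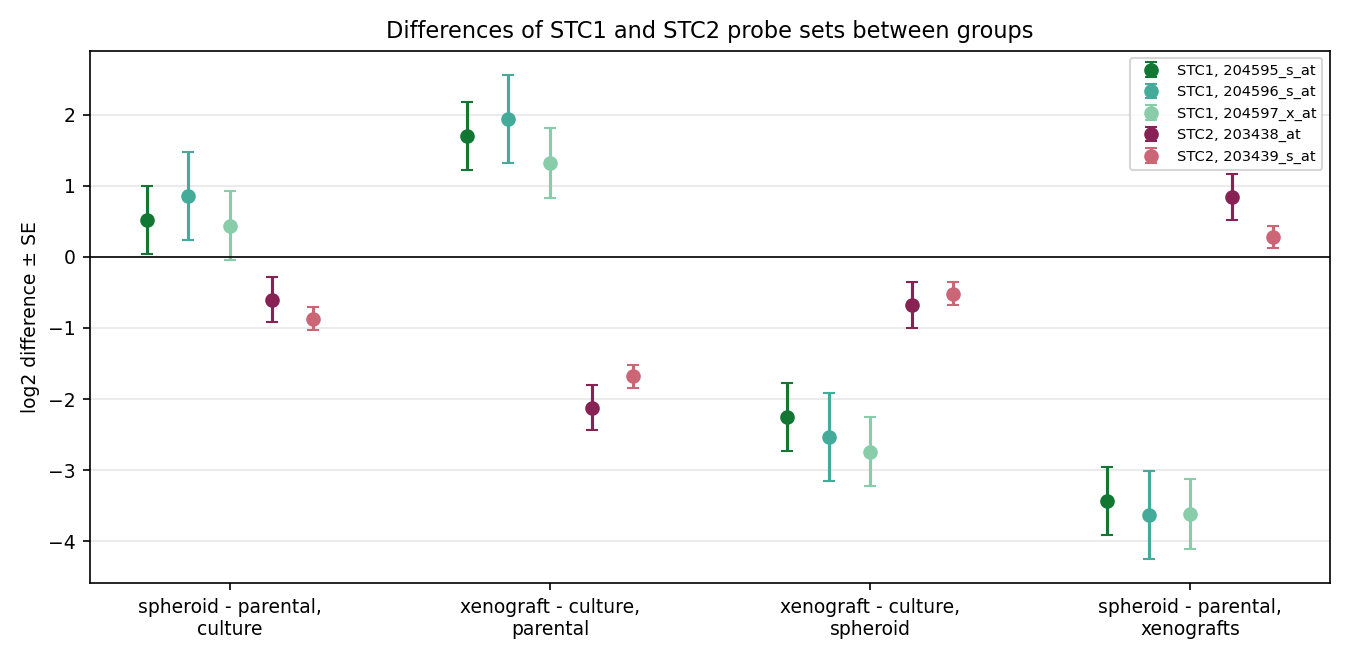
Log2 differences of the 5 probe sets (vertical axis; bars are ± SE of the fit to 12 arrays) in 4 comparisons of groups (horizontal axis). The STC1 probe sets lie at 1.32 to 1.94 for parental xenografts minus culture and at -2.74 to -2.25 for spheroid xenografts minus culture, while both STC2 probe sets lie below 0 in these comparisons.

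HIF is a transcription factor whose alpha subunit is degraded when oxygen is plentiful, and its targets raise glycolysis, glucose uptake and vessel growth. Of the 29 HIF targets listed, 28 were represented. Of these 28, 7 rose and 0 fell in spheroid against parental culture, where 0.885% of all genes were called higher, and their median difference was 0.80 against 0.07 over all genes. Without overlap 13 of the 28 were higher, as 7.21% of all genes were. ADM, which encodes the vasodilator adrenomedullin, read 9.22, 9.12 and 9.56 in parental and 10.56, 12.29 and 12.29 in spheroid culture and rose by 2.41 (SE 0.41, limma adjusted p = 0.0114). ANKRD37 (2.13), the collagen prolyl hydroxylase P4HA1 (1.57), the disulfide oxidase ERO1A (1.5), the lipid droplet protein HILPDA (1.21) and the MYC antagonist MXI1 (1.09) rose too. STC1, at 0.52, lay below the list's median, and STC2 fell here.

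The HIF count in culture moved with single arrays. Leaving out spheroid culture replicate 2 gave 1, and leaving out replicate 1 or replicate 3 of that group gave 3. Of the parental cultures, replicate 1 or replicate 3 left out gave 2, replicate 2 left out gave 10, and replicates 1 and 2 both left out gave 0. When spheroid xenograft replicate 2 was dropped the count was 3. Of the 7 genes only HILPDA kept its call in each of the 12 fits that left out 1 array (adjusted p of the 7 up to 0.170). P4HA1 differed by 0.05 when another of its probe sets, with no _s_at or _x_at suffix, stood for it.

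In parental xenografts against parental culture, 14 of 28 HIF targets rose and 0 fell, where 2.00% of genes were called higher, with a median of 1.12 against -0.0091 over all genes. Without overlap 23 of the 28 were higher, as 7.37% of all genes were. The largest were ANKRD37 (3.60), the pyruvate dehydrogenase kinase PDK1 (2.33), ADM (1.82), the glycolytic regulators PFKFB3 (1.79) and PFKFB4 (1.66), and HILPDA (1.67). HILPDA read 8.18, 8.59 and 8.48 in parental culture and 9.72, 10.17 and 10.37 in parental xenografts. The STC1 difference was 1.70 and was not called. Parental culture is shared by this comparison and the one before it.

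Dropping parental xenograft replicate 2 gave a count of 4, dropping replicate 3 of that group gave 6, and dropping spheroid xenograft replicate 2 gave 7. Of the parental cultures, replicate 3 dropped gave 5, replicate 1 gave 8, replicate 2 gave 18, and replicates 1 and 2 together gave 7. ANKRD37, HILPDA, PDK1 and PFKFB3 kept their calls in each fit that left out 1 array, and among the others the adjusted p reached 0.172. P4HA1 and the glucose transporter SLC2A1 had only 1 of 2 probe sets with the sign of the one that represents the gene.

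In spheroid xenografts against spheroid culture 0 of 28 HIF targets passed in limma, where 0.0202% of genes were called higher and 0% lower. Without overlap 1 of the targets was higher and 2 were lower, against 8.85% and 9.85% of all genes. Their median was -0.013 and their range -1.74 to 1.05, so STC1 at -2.25 lay below each of them. Between the xenografts 0 of 28 passed, where 0.0506% of genes were called higher and 0.182% lower, with a median of -0.42 and a range from -1.86 to 0.58. There 10 of 28 did not overlap and were lower in spheroid xenografts, as 7.21% of all genes were. STC1 at -3.43 lay below that range as well, and it is the difference for which STC1 was chosen.

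SLC2A3, a glucose transporter, was the HIF target most like STC1. Likeness was measured as the root mean square difference of the profiles over 12 arrays, each centred on its own mean. It was 0.81 for SLC2A3, against 1.36 if STC1 is set against a flat line. SLC2A3 read 8.98, 10.14 and 9.28 in parental culture, 11.33, 10.65 and 10.20 in spheroid culture, 11.29, 11.04 and 10.21 in parental xenografts and 8.90, 8.99 and 9.09 in spheroid xenografts. It was higher in each array of spheroid culture and of parental xenografts than in any parental culture array, as 7.21% and 7.37% of all genes were. Its spheroid xenografts overlapped with parental culture. The next HIF targets by likeness were PFKFB4 (1.10) and ANGPTL4 (1.12), a lipoprotein lipase inhibitor.

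The test of the difference of differences, spheroid minus parental in xenografts less the same in culture, called 2 of 28 HIF targets lower, SLC2A3 (-3.12, SE 0.50, limma adjusted p = 0.0416) and HILPDA (-1.99, SE 0.26, adjusted p = 0.0171), where 0.0708% of genes were called lower. The list's median was -1.40, against -0.044 over all genes, with 26 of 28 below 0. SLC2A3 kept its call in 3 and HILPDA in 7 of the 12 fits that left out 1 array, with adjusted p up to 0.148. Dropping parental culture replicate 2 gave 8. The count was 0 or 1 when parental culture replicate 3, either of spheroid culture replicates 2 and 3, either of parental xenograft replicates 1 and 2, or any spheroid xenograft was dropped.

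Among the HIF subunits and regulators HIF1A, the widely expressed alpha subunit, read 11.68, 11.48, 11.86 and 11.91 as means of parental and spheroid culture and of parental and spheroid xenografts. None of the 6 genes passed in any comparison. EPAS1, the alpha subunit also called HIF2A, read 5.96, 5.73, 7.40 and 6.57 in the same order, a difference of 1.44 between parental xenografts and culture (SE 0.54, limma adjusted p = 0.216). Its parental xenografts spread widely, from 6.08 to 9.06 (SD 1.52).

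**Figure D3:**
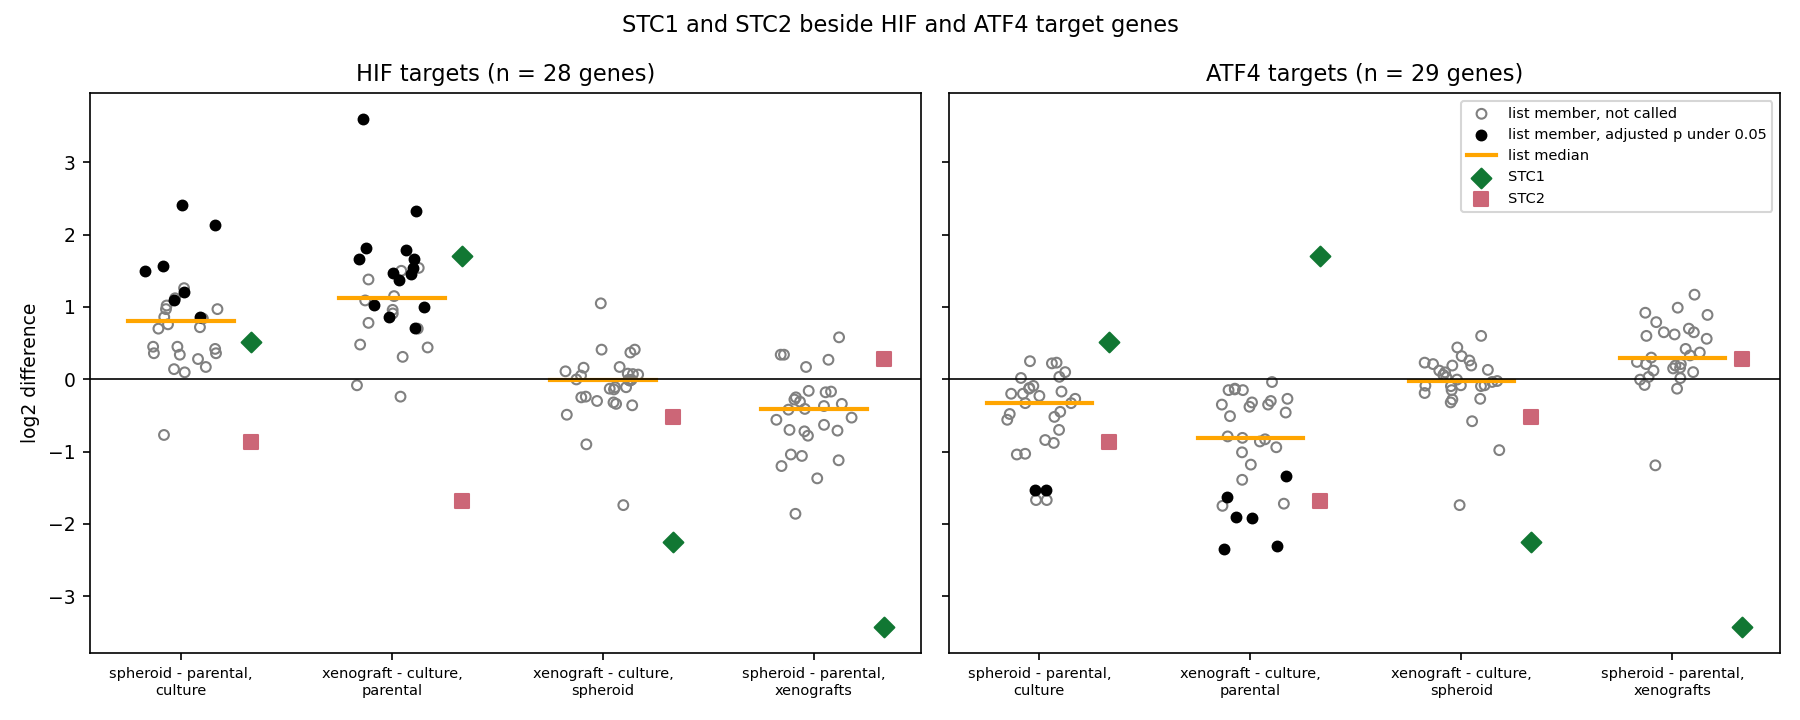
Log2 differences (vertical axis) of HIF targets (left, 28 genes) and ATF4 targets (right, 29 genes) in 4 comparisons (horizontal axis), with filled points for genes at an adjusted p under 0.05, a line at the list's median, and STC1 and STC2 beside them. STC1 lies below every HIF target for spheroid xenografts minus culture (-2.25) and between xenografts (-3.43), and STC2 lies at -0.87 in culture and at -1.68 for parental xenografts minus culture, where the ATF4 medians are -0.33 and -0.81.

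ATF4 raises amino acid synthesis, amino acid uptake and tRNA charging when translation initiation factor eIF2 is phosphorylated. Of 30 ATF4 targets listed 29 were represented. In spheroid against parental culture 2 fell and 0 rose, where 1.58% of genes were called lower, and the list's median was -0.33. CHAC1 read 8.81, 9.68 and 8.60 in parental and 7.78, 7.45 and 7.26 in spheroid culture and fell by 1.53 (SE 0.25, limma adjusted p = 0.00945). JDP2, a repressor of the AP-1 family, read 7.50, 9.05 and 8.03 against 6.76, 6.40 and 6.84 and fell by 1.53 as well (adjusted p = 0.0222). STC2, at -0.87, lay between these genes and the median.

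The ATF4 count in culture was 0 when spheroid culture replicate 2 was dropped and 1 when its replicate 3 was. Of the parental cultures, replicate 3 dropped gave 1, replicate 1 gave 7, and replicates 1 and 2 together gave 3. After quantile normalisation again or cyclic loess the count was 8. The call of CHAC1 was lost without spheroid culture replicate 2 (limma adjusted p = 0.0602). That of JDP2 was lost when that array, spheroid culture replicate 3 or parental culture replicate 3 was dropped (adjusted p up to 0.128 for both genes).

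In parental xenografts against parental culture, the comparison with the larger fall of STC2, 6 of 29 ATF4 targets fell and 0 rose, where 1.48% of genes were called lower. All 29 differences were below 0, with a median of -0.81 and a range from -2.35 to -0.04. The 6 were CHAC1 (-2.35), JDP2 (-2.30), the transcription factor CEBPG (-1.92), the cystine transporter SLC7A11 (-1.91), the mitochondrial enzyme PCK2 (-1.63) and the stress sensor SESN2 (-1.34). STC2, at -1.68, fell within this range. The xenograft arrays of CHAC1 read 6.84, 6.47 and 6.72.

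Of the parental cultures, replicate 1 dropped gave a count of 15, replicate 3 gave 2, and replicates 1 and 2 together gave 7. Dropping parental xenograft replicate 1 or replicate 2 gave 2. CHAC1 and JDP2 kept their calls in each fit that left out 1 array, and the adjusted p of the others reached 0.180. The summed linear signal of the 29 genes ran from 26539 to 86008 over the parental cultures and from 26095 to 31975 over the parental xenografts, and the ranges overlapped. The median centred level of the list was -0.32, 1.02 and 0.42 in parental culture replicates 1 to 3, and replicate 1 thus lay below the spheroid cultures (-0.13, -0.01 and 0.16). On STC2 the same array lay above the spheroid cultures on 203439_s_at (7.80), while on 203438_at (7.12) it lay among them. Replicates 1 and 2 are the arrays that stood apart, and the part of this in the ATF4 counts was not tested.

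In spheroid xenografts against spheroid culture 0 of 29 ATF4 targets passed, where 0.0202% of genes were called higher and 0% lower. Their median was -0.024. Without overlap 1 was higher and 3 were lower, against 8.85% and 9.85% of all genes. Between the xenografts 0 passed, where 0.0506% of genes were called higher and 0.182% lower, with a median of 0.30 and 25 of 29 above 0. Without overlap 10 of 29 were higher in spheroid xenografts and 1 was lower, against 9.30% and 7.21% of all genes. STC2 stood at 0.28 there. CHAC1 alone passed the test of the difference of differences (2.33, SE 0.35, limma adjusted p = 0.0340), where 0.0657% of genes were called higher. It kept that call in 4 of 12 fits without 1 array, with adjusted p up to 0.148.

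The ATF4 targets most like STC2 were PCK2 (root mean square difference 0.38), CHAC1 (0.41) and JDP2 (0.45), against 0.66 if STC2 is set against a flat line. Among all genes they ranked 68, 126 and 254 by this likeness. PCK2 read 8.20, 9.92 and 9.01 in parental culture, 7.91, 8.11 and 7.99 in spheroid culture, 7.35, 7.18 and 7.70 in parental xenografts and 7.90, 8.10 and 8.10 in spheroid xenografts. These 3 genes, like STC2, had their highest group mean in parental culture and their lowest in parental xenografts. This follows largely from their choice by likeness to STC2 over the same arrays. Of HIF targets the closest to STC2 were CA12 (0.64), EGLN3 (0.70) and HK2 (0.87). STC1 in turn had no ATF4 target closer than VLDLR, a lipoprotein receptor (1.08), followed by ALDH1L2 (1.29) and ATF5 (1.35).

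ATF4 itself had group means of 12.49, 12.43, 12.57 and 12.72 in the order of the HIF1A means, and passed in no comparison. Its activity is set largely at translation, which these arrays do not measure. Of the 6 genes of the eIF2 pathway only EIF2AK3, the kinase PERK of the endoplasmic reticulum, passed, in parental xenografts against parental culture (1.42, SE 0.34, limma adjusted p = 0.0413), where 2.00% of all genes were called higher and where STC2 fell. It kept the call in 1 of 12 fits without 1 array (adjusted p up to 0.160).

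Over all genes, those most like STC1 were the homeobox gene PRRX1 (0.68), the hormone CRH (0.81), the matrix protein FREM2 (0.81), SLC2A3 (0.81) and the xylosyltransferase GXYLT2 (0.83). PRRX1 read 8.97, 8.45 and 9.32 in parental xenografts and 5.88, 5.46 and 5.97 in spheroid xenografts, and 7.09 to 8.15 over the 6 cultures. CRH read 9.37 to 12.54 over the cultures, a wider range than STC1 had there. The genes named here were chosen for likeness to STC1 over the same arrays, so a shared pattern follows largely from that choice.

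Those most like STC2 were MAGI2-AS3, a non-coding RNA, the synaptic scaffold HOMER2, the RNA-decay factor ZFP36 and the Notch ligand DLL3 (0.26 each), and the corepressor TBL1X (0.28). HOMER2 read 7.90, 8.02 and 7.12 in parental culture, 6.72, 6.67 and 6.99 in spheroid culture, 6.38, 6.34 and 6.18 in parental xenografts and 6.42, 6.68 and 6.35 in spheroid xenografts. All 5 genes had their highest group mean in parental culture, which follows largely from their choice by likeness to STC2 over the same arrays. For HOMER2 1 of 2 and for DLL3 2 of 4 probe sets had the representing probe set's sign between the xenografts.

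**Figure D4:**
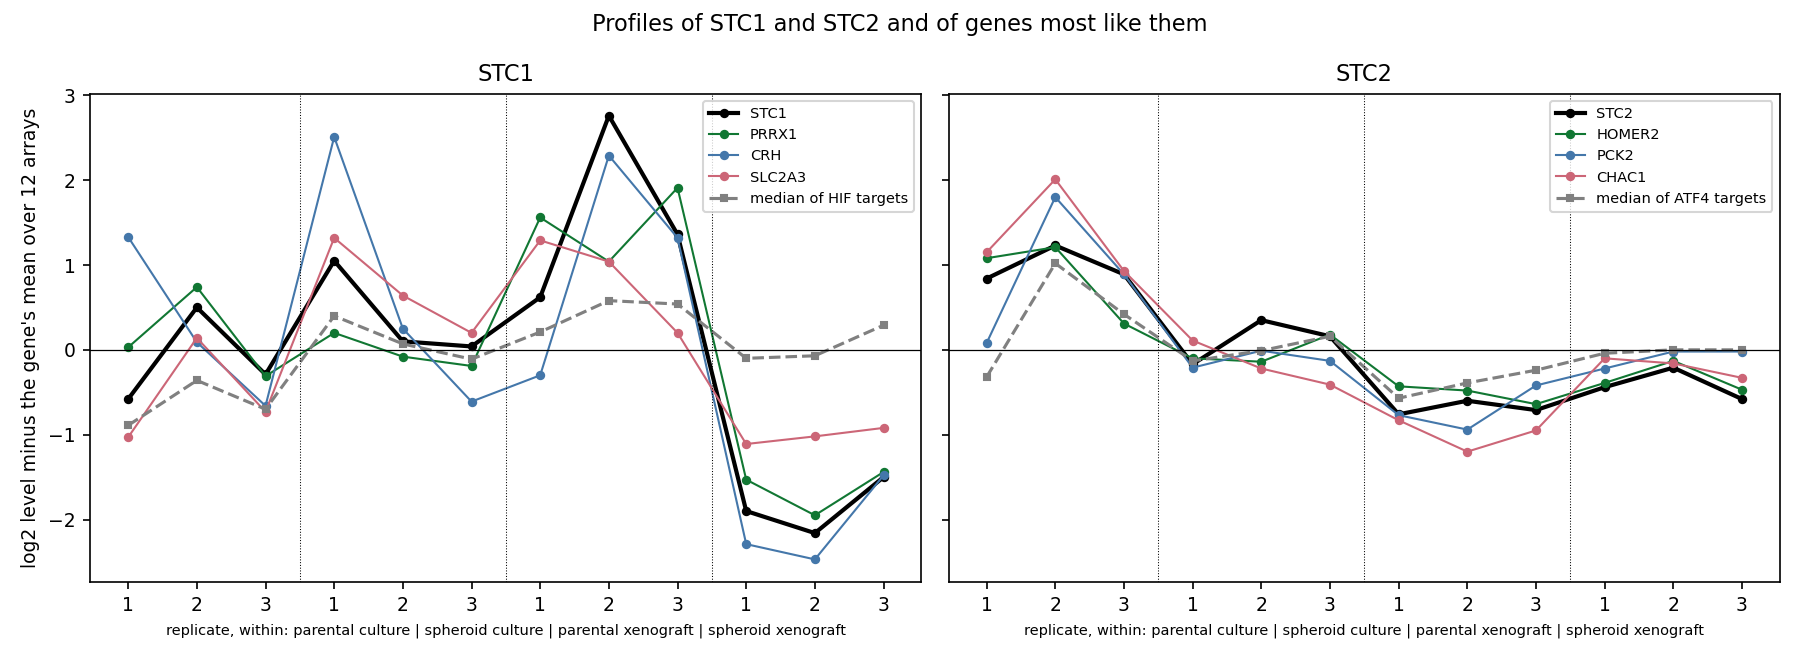
Log2 level minus the gene's own mean over 12 arrays (vertical axis) for each array (horizontal axis, replicates within the 4 groups; lines only join points of a gene) of STC1 with PRRX1, CRH, SLC2A3 and the median of HIF targets (left), and of STC2 with HOMER2, PCK2, CHAC1 and the median of ATF4 targets (right). In the spheroid xenografts STC1 and PRRX1 are below their means while the HIF median is near 0, and STC2 and HOMER2 have their highest values in parental culture. The single genes beside STC1 and STC2 were chosen for likeness to them over these arrays.

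Of 18 listed genes on which the stanniocalcins act or which handle calcium and phosphate, 17 were represented, and at most 2 passed in any comparison. PAPPA, the protease that both hormones inhibit, read 6.06, 6.13, 5.96 and 6.15 as group means in the same order, and passed in no comparison. Its substrates IGFBP4 (6.98, 6.50, 6.41 and 6.49) and IGFBP5 (6.64, 6.75, 6.45 and 6.63) did not pass either.

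In culture 1 of 17 rose, IGF1R, the receptor of insulin-like growth factor 1, where 0.885% of genes were called higher. It read 7.43, 8.29 and 7.57 in parental and 8.78, 9.39 and 9.52 in spheroid culture, a difference of 1.47 (SE 0.30, limma adjusted p = 0.0278), and it kept the call in 7 of 12 fits without 1 array (adjusted p up to 0.140). In parental xenografts against culture STIM2, a calcium sensor of the endoplasmic reticulum, rose by 1.22 (adjusted p = 0.0304) and the mitochondrial carrier UCP2 fell by 0.78 (0.0320), where 2.00% of all genes were called higher and 1.48% lower. These calls were kept in 6 and in 5 of the 12 fits, with adjusted p up to 0.124. The phosphate transporter SLC20A1 read 12.90, 12.23 and 12.20 in parental and 11.49, 10.95 and 11.22 in spheroid xenografts without overlap, a difference of -1.23 that did not pass (SE 0.26, adjusted p = 0.0984). Of all genes 7.21% were lower in spheroid xenografts without overlap.

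Markers of fibroblasts, a cell type that a tumour can take in from its host, are given beside STC1. The probe sets are annotated to human genes and the host animal is not given. Whether they read host RNA was not tested, so host and tumour cells cannot be told apart here. Of 11 fibroblast markers 3 rose in parental xenografts against culture, FAP (2.20), COL3A1 (2.06) and POSTN (0.84), where 2.00% of all genes were called higher. FAP kept this call in 12, COL3A1 in 10 and POSTN in 9 of 12 fits without 1 array (limma adjusted p up to 0.0726). The other 8 markers were not called, and the list's median was 0.16, against -0.0091 over all genes. POSTN read 3.91 to 4.13 in parental culture and 4.53 to 5.19 in parental xenografts, below or near the lower quartile of the arrays. Of the 11 markers 1, FAP, fell between spheroid and parental xenografts (-1.35, SE 0.22, limma adjusted p = 0.0365), where 0.182% of genes were called lower, a call kept in 4 of those fits (adjusted p up to 0.193). FAP read 7.58, 6.78 and 7.45 in parental and 5.92, 5.96 and 5.87 in spheroid xenografts, and 4.70 to 5.89 in culture. In spheroid xenografts against spheroid culture 0 of the 11 passed, where 0.0202% of genes were called higher, with a median of -0.0091. Without overlap 2 were higher there, as 8.85% of all genes were. COL3A1 read 6.14 to 7.27 against 5.19 to 5.43 in spheroid culture, and POSTN 4.39 to 4.57 against 4.09 to 4.15. The summed linear signal of the list ran from 851 to 1086 in parental and from 1023 to 1175 in spheroid culture, and from 1166 to 1563 in parental and from 1091 to 1151 in spheroid xenografts. COL3A1 differed by -0.02 when only probe sets with no _s_at or _x_at suffix were used. LUM lay below the lower quartile on all arrays. On COL3A1 replicate 2 of the parental xenografts was highest (7.88), as on STC1, but on FAP it was lowest of the 3. Their part in the STC1 levels was not tested. Of 10 endothelial and 9 myeloid markers 0 passed in any comparison in limma, and KDR and TIE1 lay below the lower quartile on all arrays. The same limit holds for these lists, so this does not show that such host cells were absent.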

How the data were processed

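RNA of 12 samples, 2 µg of total RNA each, was read on 1 Affymetrix array per sample. The deposited log2 values, 1 per probe set, were made by the authors with RMA and affy, as far as the submitters' processing notes say. The sources used here give no versions and do not say whether RMA was run on all arrays at once. That the scale is log2 follows from the values' range.

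Of 54675 probe sets 62 were controls, 41091 had 1 symbol in the platform annotation, 1801 had several and 11721 had none. The symbols of 41037 were looked up by gene number in a list of GRCh38.p14 genes. The probe set with the highest mean over all arrays stood for each of 19775 genes. In R 4.3.3, limma 3.58.1 fitted a mean per group to all 12 arrays (8 residual degrees of freedom) with eBayes and two-sided tests. Adjustment was by Benjamini-Hochberg over all genes, or over 54613 probe sets in a second fit, with 0.05 as the threshold. The fit was tested on simulated data with independent noise on each array, which does not cover arrays that deviate together. The number of arrays limits the precision, and the median SE of a difference was 0.20. With 3 arrays a side an exact permutation test gives p = 0.1 at the least and was not used.

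Deviations from group means, correlated over genes, were positive for same-numbered arrays of spheroid culture and spheroid xenografts (0.33 to 0.43) and of the xenografts (0.18 to 0.48). They were also positive for spheroid culture and parental xenografts (0.08 to 0.37). With parental culture they went down to -0.56. The pairing comes from these values, not from the labels. Replicate 3 also had the widest interquartile range within spheroid culture (3.07), parental xenografts (3.29) and spheroid xenografts (3.23). The part of this in the correlations was not tested.

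The members and the gene lists were chosen with earlier results of these data known. Named genes were the members, the 5 genes most like each (without symbols of the LOC, FAM, KIAA, orf, -AS1 or -IT1 kind), the 3 HIF and ATF4 targets most like each, up to 6 called targets per comparison, the partners and regulators, and KRT8, KRT18 and the highest markers. Other markers, and the values behind counts of 5 or fewer, were named after their values were seen. Promoter sequences were from RefSeq. Alternatives covered the normalisation, the choice of probe set, a filter on dim genes, the arrays in the fit, a replicate block, the moderation and leaving out arrays.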

Additional observations from a re-analysis of the deposited data

Results flagged for a closer look

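STC1 differed between the cell origins in its change from culture to tumour, by -3.95, with every parental xenograft above and every spheroid xenograft below its culture arrays. This difference was not tested, since STC1 was chosen on the tumour values. Among the genes set beside it, the limma test of the same difference of differences passed for SLC2A3 (-3.12), HILPDA (-1.99) and FAP (-1.94). In each of them the change from culture to tumour was lower for spheroid than for parental cells, where 0.0708% of genes were called lower. The test passed for CHAC1 too (2.33), whose change was higher for spheroid cells, where 0.0657% of genes were called higher. From culture to tumour CHAC1 differed by -2.35 in parental and by -0.024 in spheroid cells. These are differences of changes, not of levels. FAP was 1 of 11 fibroblast markers, of which 10 were not called. It kept this call in 3 of 12 fits without 1 array (adjusted p up to 0.148). No explanation of these differences was tested. The groups held 3 arrays each, too few for a check of single outlying arrays.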

How the results depend on the processing

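Over the alternatives run, 24 for STC2 and 23 for STC1, no difference of either gene changed sign. STC2 in culture was not called with the mean of its probe sets (-0.74), with the probe set of largest interquartile range or without _x_at and _s_at probe sets (-0.60 in both, where 203438_at stands for the gene), with only the groups compared or with the replicate block as well (-0.87 in both), or without both parental culture replicates 1 and 2 (-0.78). Leaving out 1 array it ran from -0.99 to -0.73. STC2 between the xenografts moved to 0.56 with the mean of probe sets and to 0.84 on 203438_at. STC1 in parental cells ran from 1.11 to 2.18 when 1 array was left out and passed in 2 of those fits. STC1 in spheroid cells passed with only the groups compared (-2.25) and with the replicate block added (-2.25), a fit chosen after seeing the data. The replicate block on all 12 arrays changed no call of either gene, at 0.52, 1.70 and -2.25 for STC1 and -0.87, -1.68 and -0.52 for STC2. STC1 has no value without _x_at and _s_at probe sets, since none is left. That choice turned 3 other genes in parental xenografts minus culture, P4HA1 (-0.04), SLC2A1 (-0.08) and COL3A1 (-0.02), on which other probe sets then stand for the gene.

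Counts over all genes depended on the fit. In culture 175 genes were called higher and 312 lower, against 77 and 273 after median centring, 417 and 679 after quantile normalisation again and 8 and 7 with only the culture arrays. In parental cells 395 and 292 were called, against 242 and 218 after median centring, 520 and 658 after quantile normalisation again, and 46 and 23 with only the groups compared. In spheroid cells 4 and 0 were called, against 72 and 45 with only the groups compared and 416 and 175 with the replicate block added. The cause was not tested. Over all alternatives the HIF targets called higher ran from 0 to 10 in culture and from 1 to 18 in parental cells, and the ATF4 targets called lower from 0 to 8 and from 1 to 15.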
